A study of Mus musculus with 6 samples.

Results

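The genes described here are 10 genes of smooth muscle contraction and its control, among them *Oxtr*, which encodes the oxytocin receptor. They were chosen by gene symbol from what the encoded proteins do, and all 10 were among the 15280 genes of the expression table. The RNA-Seq data came from 3 parous female BK5.ATF3 mice, with 1 mammary tumor (T) and the normal gland beside it (M) taken from each, so n = 3 per tissue. In these mice the bovine keratin 5 promoter, which is active in basal epithelium, drives the transcription factor ATF3. Tumor and gland carry the same transgene and come from the same animals, so the comparison has no wild-type tissue. The females had raised a litter. A tumor length of 1.5 cm was the end point for taking tissue, and the age at tumor onset was 6 to 12 months. No drug treatment is described, and the strain background and the exact age of each mouse are not given in the sources used here.

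Levels are given as CPM, the fragments on a gene scaled to the effective size of its library. The depth ran from 4750989 to 7806908 fragments assigned to genes, and its median was 6127715 for glands and 6948233 for tumors. A floor of 3 fragments corresponded to between 0.393 and 0.610 CPM, and it covers counting error only. Log2 fold changes (log2 FC) are tumor minus normal on log2(CPM + 0.5), which understates the change of genes with few fragments. A gene was called a DEG in limma's moderated test, two-sided, at an FDR-adjusted p of at most 0.05 over all 15280 genes together with an FC of at least 2. Gene positions are on the mouse genome mm9.

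Myoepithelial cells are the basal cells of the mammary epithelium that contract around alveoli and ducts, and they share most of their contractile proteins with the smooth muscle of vessel walls. In both cell types, calcium bound to calmodulin activates myosin light chain kinase, which phosphorylates the regulatory light chain of myosin and lets it pull on filaments of smooth muscle actin. In the lactating gland, oxytocin starts this sequence by binding its receptor on myoepithelial cells, which ejects milk. Many contractile genes are transcribed by serum response factor (SRF) together with its partner myocardin.

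Of the 10 genes, *Oxtr*, *Des*, *Myh11*, *Lmod1* and *Mylk* fell in the tumors, *Actg2* rose, and *Acta2*, *Cnn1*, *Tagln* and *Myocd* were not called. Among all genes tested, 13.7% were called lower, 14.5% higher and 28.2% in either direction. All 3 tumors lay below all 3 glands in 5 of the 10 genes, against 26.3% of all genes, and above them in 2, against 27.6%. The median log2 FC of the 10 genes was -1.35, and that of all genes was -0.003. Within the single mice, the median of the 10 log2 ratios was -1.17 in the M11035 mouse, -1.42 in the M11640 mouse and -0.77 in the M9232 mouse. The genes therefore did not move together, since the called log2 FC ran from -4.83 for *Oxtr* to 3.00 for *Actg2*. These are bulk tissues, in which fewer cells of a type and less RNA per cell cannot be told apart.

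**Figure D1:**
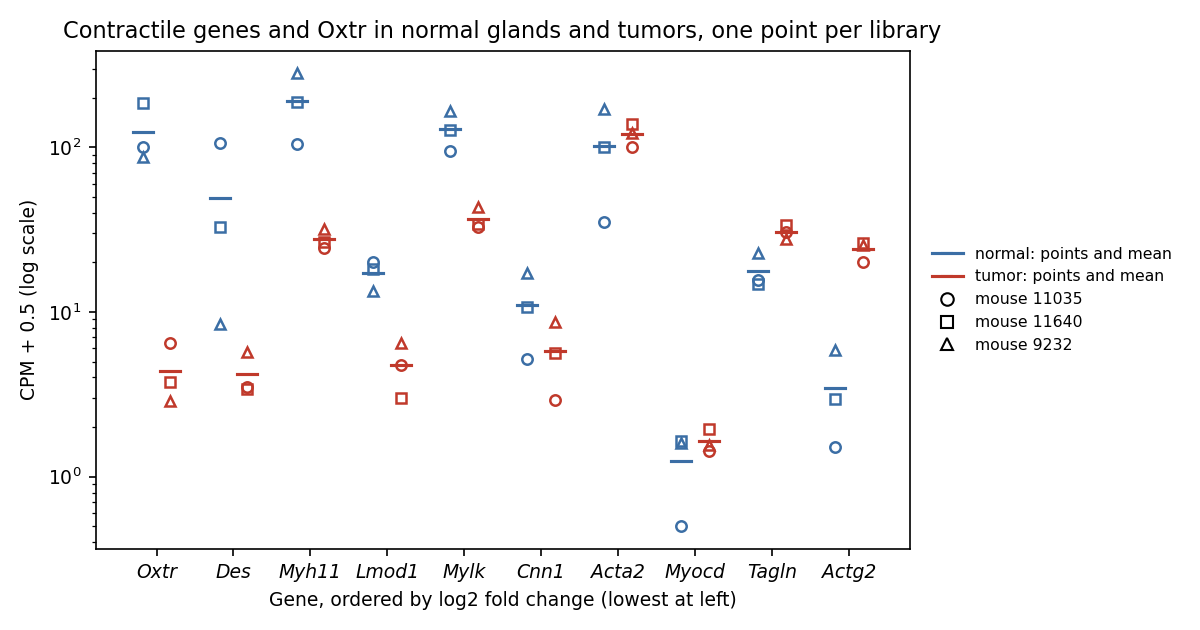
CPM + 0.5 on a log axis for the 10 genes, ordered by log2 FC, with normal glands in blue and tumors in red, 1 symbol per library shaped by mouse, and short lines at the means of 3 libraries. The *Oxtr* symbols of the tumors lie far below those of the glands, those of *Actg2* lie above them, and those of *Acta2* are mixed.

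*Acta2* (chr19:34315580-34329826, minus strand) encodes smooth muscle alpha-actin, the actin most used as a mark of myoepithelial cells and smooth muscle. Its level was 34.6 CPM in gland M11035, 99.6 in M11640 and 171 in M9232, and 99.7 CPM in tumor T11035, 137 in T11640 and 121 in T9232. The 3 tumors lay inside the range of the glands, with gland M11035 lowest and gland M9232 highest of the 6 libraries. The log2 FC was 0.49 (standard error 0.48, 95% interval -0.61 to 1.60, limma adjusted p = 0.446). The tumor was higher than the gland in 2 of 3 mice, with log2 ratios of 1.52 in the M11035 mouse, 0.46 in the M11640 mouse and -0.50 in the M9232 mouse. Without gland M11035 the *Acta2* estimate turned negative, at -0.14, so that its direction rested on that library, and without gland M9232 it was 1.0035. It was 0.23 in edgeR's and in DESeq2's test on the recovered fragments.

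*Actg2* (chr6:83462899-83486259, minus strand) encodes smooth muscle gamma-actin, the enteric form that is abundant in the gut wall. Its level was 1.02, 2.48 and 5.33 CPM in glands M11035, M11640 and M9232, and 19.7, 25.8 and 25.0 CPM in the tumors of the same mice. Every tumor was above every gland, and gland M9232, the highest of its tissue, still lay under the lowest tumor. The mean rose from 2.94 ± 2.20 CPM (SD, n = 3) in the glands to 23.5 ± 3.31 CPM in the tumors, a ratio of 7.99 that was 13.5 without gland M9232 and 6.02 without gland M11035. The log2 FC of *Actg2* was 3.00 (standard error 0.44, limma adjusted p = 8.42e-04), and it was positive in 3 of 3 mice. It was 2.52 without gland M11035 and 3.49 without gland M9232, the lowest and highest values when single libraries were left out. In the glands these values rested on 5, 15 and 39 fragments. The coding transcripts of *Actg2* and *Acta2* were 84.2% identical over 1143 aligned bp, and those of *Actg2* and the skeletal actin gene *Acta1*, named after its values were seen, 85.0% over 1137 bp. How fragments that match more than 1 actin gene were counted was not tested.

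*Myh11* (chr16:14194620-14291501, minus strand) encodes the smooth muscle myosin heavy chain, the motor that pulls on these actins. Its level was 105, 189 and 281 CPM in glands M11035, M11640 and M9232, and 24.0, 26.1 and 31.5 CPM in their tumors. The tumors were close to each other and all lay below the lowest gland, while the glands differed among themselves, with M11035 lowest. *Myh11* fell with a log2 FC of -2.69 (standard error 0.32, limma adjusted p = 2.69e-04), and its mean in the glands was 7.04-fold that in the tumors. The order of the mice was the same in both tissues, with M11035 and T11035 lowest and M9232 and T9232 highest.

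*Mylk* (chr16:34745296-35002520, plus strand) encodes myosin light chain kinase, the enzyme that switches this myosin on. It measured 93.9, 126 and 166 CPM in glands M11035, M11640 and M9232, and 32.4, 33.6 and 42.7 CPM in their tumors. No tumor reached the lowest gland, and the M9232 mouse had the highest value in both tissues. The log2 FC of *Mylk* was -1.79 (standard error 0.22, limma adjusted p = 3.69e-04), and the log2 ratio within each mouse lay between -1.95 and -1.52.

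*Lmod1* (chr1:137221384-137264642, plus strand) encodes leiomodin 1, which starts new actin filaments in smooth muscle. Its level was 19.7, 17.8 and 13.0 CPM in glands M11035, M11640 and M9232, and 4.28, 2.49 and 5.99 CPM in their tumors. All tumors lay below all glands, but the gap was narrowest in the M9232 mouse, which had the lowest gland and the highest tumor. *Lmod1* fell with a log2 FC of -1.92 (standard error 0.32, limma adjusted p = 0.00166).

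*Cnn1* (chr9:21903725-21914074, plus strand) encodes calponin 1, which binds actin and slows the myosin motor. It measured 4.68, 10.2 and 16.8 CPM in glands M11035, M11640 and M9232, and 2.42, 5.11 and 8.24 CPM in their tumors. The tissues overlapped, since gland M11035 lay below tumors T11640 and T9232, yet the tumor was the lower of the pair in 3 of 3 mice. The log2 ratios within the mice were -0.83, -0.94 and -0.99. Across the 6 libraries the log2 FC of *Cnn1* was -0.92 (standard error 0.51, 95% interval -2.08 to 0.25, limma adjusted p = 0.184), so it was not a DEG. With the mouse as a block the adjusted p was 0.0177 at the same log2 FC, which still missed the FC of 2. Without gland M11035 the gene passed both thresholds, with a log2 FC of -1.38 (adjusted p = 0.0477). The estimate shrank to -0.50 (adjusted p = 0.483) without tumor T11035 and to -0.51 (adjusted p = 0.459) without gland M9232, and it was -1.73 (adjusted p = 0.111) with M9232 as the only gland.

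*Tagln* (chr9:45737711-45744141, minus strand) encodes transgelin, also called SM22 alpha, which bundles actin filaments. Its level was 15.0, 14.2 and 22.4 CPM in glands M11035, M11640 and M9232, and 30.0, 33.2 and 27.4 CPM in their tumors. Every tumor was above every gland, with the narrowest gap again in the M9232 mouse. The log2 FC of *Tagln* was 0.82 (standard error 0.21, limma adjusted p = 0.0156), which passed the FDR but not the FC of 2. Without gland M9232 it passed both, at 1.02 (adjusted p = 0.00517). The FDR was missed without tumor T11640, at 0.75 (adjusted p = 0.0712), and with M9232 as the only gland, at 0.42 (adjusted p = 0.232). Exons of *Tagln* overlap those of *Pcsk7* in the annotation, and whether strand was used in counting is not stated in the sources used here. *Pcsk7*, named for this overlap after its values were seen, measured 30.5, 24.1 and 32.0 CPM in the same glands and 21.6, 22.8 and 20.8 CPM in the tumors, and was not called.

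*Des* (chr1:75356904-75365154, plus strand) encodes desmin, the intermediate filament protein of smooth, skeletal and heart muscle. Its level was 106 CPM in gland M11035, 32.4 in M11640 and 7.93 in M9232, and 2.98, 2.88 and 5.24 CPM in their tumors. All tumors lay below all glands, but the glands spread widely and M9232 was close to its own tumor. The log2 ratio was -4.94 in the M11035 mouse, -3.28 in the M11640 mouse and -0.55 in the M9232 mouse. Across the libraries the log2 FC of *Des* was -2.92 (standard error 0.76, limma adjusted p = 0.0152). This call was lost without tumor T11035 (log2 FC -2.81, adjusted p = 0.0547) and without tumor T11640 (-2.79, adjusted p = 0.0605). It was kept without gland M11035, at a log2 FC of -2.03 (adjusted p = 0.0214), and without gland M9232, at -3.86 (adjusted p = 3.91e-04). Exons of *Des* overlap those of *Gm15179*, named for this overlap after its values were seen, which was also called lower, with 3.46, 3.47 and 0.821 CPM in the glands and 0.186, 0 and 0 CPM in the tumors.

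Markers of skeletal muscle moved with *Des* among the glands. The 22 measured genes of that list summed to 20678 CPM in gland M11035, 7228 in M11640 and 448 in M9232, and to 149, 76.4 and 90.8 CPM in the tumors of these mice. The most abundant by mean CPM, the titin gene *Ttn*, measured 12128, 4077 and 372 CPM in these glands and 85.4, 41.0 and 44.1 CPM in the tumors. In gland M9232, 10 of the 22 were at or under the floor, and *Acta1* was listed at 0, against 189 CPM in M11035 and 73.5 CPM in M11640. Of the 22, 11 were called lower and 11 were not called, with a median log2 FC of -3.62. The highest was the slow myosin gene *Myh7* at -0.73 and the lowest the fast myosin gene *Myh4* at -6.80, and neither was called. *Myh4* measured 0.958 CPM in gland M9232 and 6.33 CPM in tumor T11035, so its tissues overlapped. Within the mice the median log2 ratio of the 22 was -6.40 in the M11035 mouse, -5.40 in the M11640 mouse and -0.01 in the M9232 mouse. In tumors T11035, T11640 and T9232, 11, 13 and 12 of the 22 were at or under the floor, where these ratios understate a change. With M9232 as the only gland, 2 were called lower and 1 higher. The number called lower ran from 2 to 21 when single libraries were left out, with 2 without gland M11640, tumor T11640 or tumor T9232 and 21 without gland M9232.

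The tumors were also set against gland M9232 alone, whose spread was assumed to equal that of the tumors. This gland was picked after it was seen to be the lowest of the 3 in skeletal muscle markers and in *Des*, so a smaller difference in *Des* was fixed by the choice and bears on no cause. Gland M9232 was also the lowest of the 3 in *Lmod1* and *Oxtr*. It was the highest in *Acta2*, *Actg2*, *Myh11*, *Cnn1*, *Tagln* and *Mylk*. The direction in which the estimates of these genes moved against this gland alone was therefore fixed by the choice as well. *Myh11*, *Mylk* and *Oxtr* were called lower there, with log2 FC of -3.35, -2.20 and -4.40, and *Actg2* was called higher, at 2.03. *Des* had a log2 FC of -1.05 (limma adjusted p = 0.146) and *Lmod1* one of -1.58 (adjusted p = 0.0777), so that 3 of the 10 genes were called lower and 1 higher, where 10.1% of all genes were called lower and 10.9% higher. The median of the 10 genes was -1.31 in this comparison, and *Acta2* was at -0.53 and not called.

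*Myocd* (chr11:64990063-65083491, minus strand) encodes myocardin, which switches on contractile genes through SRF. It measured 0, 1.16 and 1.09 CPM in glands M11035, M11640 and M9232, and 0.930, 1.44 and 1.05 CPM in their tumors. Each library held at most 11 *Myocd* fragments, the tissues overlapped, and M11035 was the library without any. The log2 FC was 0.57 (standard error 0.51, 95% interval -0.60 to 1.74, limma adjusted p = 0.405), so *Myocd* was not a DEG. The estimate was 0.001 without gland M11035, the library at 0, and 1.202 with a pseudocount of 0.1.

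*Oxtr* (chr6:112423678-112440884, minus strand) encodes the receptor through which oxytocin makes myoepithelial cells contract. Its level was 99.4, 184 and 86.9 CPM in glands M11035, M11640 and M9232, and 5.95, 3.28 and 2.40 CPM in their tumors. The highest tumor was far below the lowest gland, and the drop was present in 3 of 3 mice. The mean was 123 ± 52.9 CPM (SD, n = 3) in the glands and 3.88 ± 1.85 CPM in the tumors, so the glands held 31.9-fold the level of the tumors. The log2 FC of *Oxtr* was -4.83 (standard error 0.36, limma adjusted p = 2.34e-05), the lowest of the 10 genes. Within the mice the log2 ratio was -3.95 in the M11035 mouse, -5.61 in the M11640 mouse and -4.91 in the M9232 mouse.

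**Figure D2:**
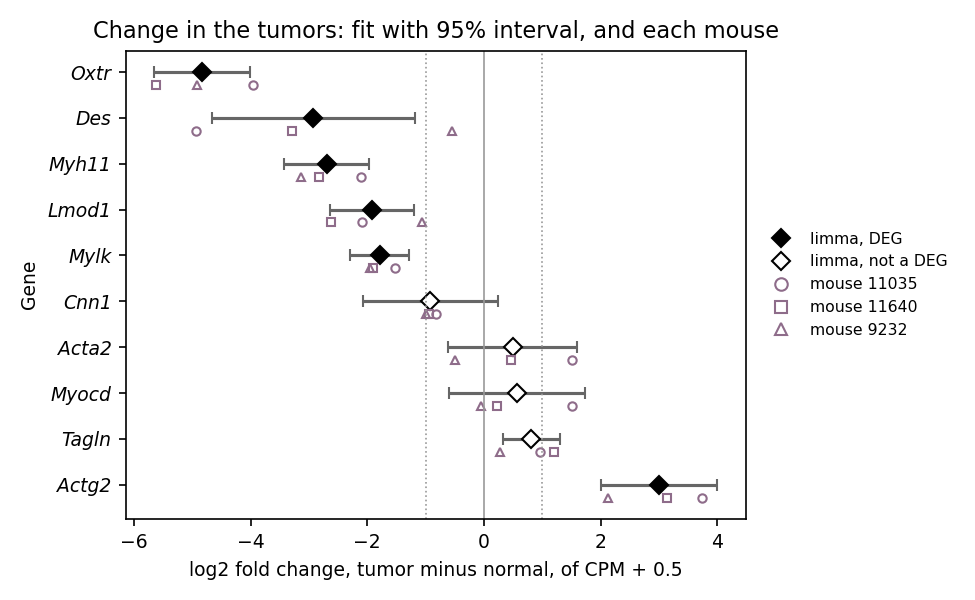
Log2 FC of the 10 genes (tumor minus normal, of CPM + 0.5), with 95% intervals from limma as bars, filled diamonds for DEGs, open diamonds for the other genes, open symbols under each bar for the log2 ratios of the 3 mice and dotted lines at an FC of 2. The mice of *Des* spread from -4.94 to -0.55, whereas those of *Cnn1* lie between -0.99 and -0.83.

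Levels of different genes were compared per kilobase of exon in GENCODE, whereas the authors counted fragments on RefSeq genes, whose exon lengths were not at hand. Levels per kb can therefore include exons that were not counted. In the glands the order of the means was *Acta2* (57.1 CPM per kb), *Myh11* (28.9), *Oxtr* (24.1), *Des* (13.0), *Mylk* (12.1), *Tagln* (10.9), *Cnn1* (4.47), *Lmod1* (4.27), *Actg2* (1.88) and *Myocd* (0.113). The glands differed widely, from 19.4 to 96.0 CPM per kb in *Acta2* and from 2.11 to 28.3 in *Des*, and neighbours in this order overlapped except *Tagln* with *Cnn1* and *Actg2* with *Myocd*. In the tumors the order was *Acta2* (67.0 CPM per kb), *Tagln* (19.0), *Actg2* (15.1), *Myh11* (4.10), *Mylk* (3.41), *Cnn1* (2.22), *Lmod1* (1.08), *Des* (0.986), *Oxtr* (0.757) and *Myocd* (0.172). *Acta2* had the highest mean per kb in both tissues, although it was 3rd in gland M11035, and its range in the tumors, 56.0 to 77.1 CPM per kb, lay above that of *Tagln* (17.3 to 20.9), which in turn lay above that of *Actg2* (12.6 to 16.5). *Actg2* was also apart from *Myh11*, and *Oxtr* from *Myocd*, whereas the tumor ranges of neighbours from *Myh11* down to *Oxtr* overlapped. In the single libraries *Oxtr* was 2nd in glands M11035 and M11640 and 3rd in M9232, and 6th, 8th and 9th in the tumors of these mice. *Actg2* was 3rd in each tumor, 7th in gland M9232 and 9th in the other 2 glands. With the length of the longest coding transcript instead, *Mylk* came before *Des* in the glands, and in the tumors *Mylk* came before *Myh11* and *Des* before *Lmod1*. *Oxtr* was then 4th in gland M9232, and *Actg2* was 2nd in tumor T9232, where it passed *Tagln*, so that the tumor ranges of these 2 genes overlapped.

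The CPM + 0.5 of each gene was also set against that of *Acta2* in the same library, as a description chosen after the values were seen. The log2 ratio of *Myh11* to *Acta2* was 1.59, 0.92 and 0.71 in glands M11035, M11640 and M9232, against -2.03, -2.37 and -1.92 in their tumors. The ratio of this myosin to this actin was thus lower in every tumor than in any gland. The log2 ratio of *Actg2* to *Acta2* was -4.53, -5.07 and -4.88 in the glands and -2.31, -2.39 and -2.25 in the tumors, with little spread inside either tissue. The tissues also did not overlap in the ratios of *Cnn1*, *Mylk*, *Lmod1* and *Oxtr* to *Acta2*, whose means differed by -1.41, -2.28, -2.41 and -5.32 on the log2 scale. That of *Lmod1* ran from -3.09 without gland M9232 to -1.66 without gland M11035. The log2 ratio of *Des* to *Acta2* was 1.60, -1.61 and -4.35 in the 3 glands and -4.85, -5.35 and -4.40 in the tumors, so that gland M9232 and tumor T9232 were nearly equal. Its mean difference of -3.42 became -1.89 without gland M11035 and -4.87 without gland M9232. For *Tagln* and *Myocd* the tissues overlapped. *Cnn1* thus separated the tissues relative to *Acta2* although its CPM did not.

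For 4 of the genes the ratio to a relative found in most cells, also of CPM + 0.5, was tested, with an exact permutation test over the libraries that cannot go below p = 0.1 (two-sided). The log2 ratio of *Myh11* to the non-muscle myosin gene *Myh9* was -1.22, 0.29 and 0.50 in glands M11035, M11640 and M9232, and it was -3.54, -3.35 and -3.45 in their tumors. The ratio lay lower in every tumor, by -3.30 on average (exact permutation p = 0.1, or 0.2 adjusted over the 4 ratios). *Tagln* against *Tagln2* was also lower in every tumor, with a difference of -0.79 (exact permutation p = 0.1, adjusted 0.2), although *Tagln* itself was higher there. *Tagln2* measured 30.3, 25.1 and 25.4 CPM in the glands and 81.3, 78.0 and 89.3 CPM in the tumors, and it rose with a log2 FC of 1.61. *Acta2* against beta-actin (*Actb*) differed by -0.03 (exact permutation p = 1), and *Cnn1* against *Cnn2* by -0.96 (exact permutation p = 0.4), and both overlapped between the tissues. The *Acta2* to *Actb* difference changed its sign without gland M11640 (0.28), gland M9232 (0.52) or tumor T9232 (0.11), and it was -0.89 without gland M11035 and -0.18 without tumor T11640. The *Cnn1* to *Cnn2* difference was -1.81 without gland M11035, -0.57 without gland M11640 and -0.50 without gland M9232.

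Other genes of the same machinery were counted from lists compiled by hand. Of 20 further contractile and cytoskeletal genes, 7 were called lower and 2 higher, and their median log2 FC of -0.04 was close to the -0.003 of all genes. The lowest was *Pdlim3*, whose LIM-domain protein sits at actin anchoring sites, at -4.27, with 28.9, 27.7 and 44.3 CPM in glands M11035, M11640 and M9232 and 1.68, 1.05 and 1.05 CPM in their tumors. The highest was the actin cross-linker gene *Actn1*, at 1.59. The most abundant was the tropomyosin gene *Tpm1*, which also rose, at 1.33, from 553, 322 and 187 CPM to 672, 866 and 909 CPM. In both *Pdlim3* and *Tpm1* the tissues did not overlap. The number called higher was 1 without gland M9232, tumor T11640 or tumor T9232.

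Of 18 measured genes that control the phosphorylation of myosin light chain, 3 were called lower and 1 higher, with a median of -0.26, and *Ppp1r14a* of the same list was not among the genes of the table. The lowest was *Gucy1a3*, a subunit of the nitric oxide receptor that relaxes smooth muscle, at -2.34, and the highest was *Pde5a*, whose enzyme breaks down the cyclic GMP made by that receptor, at 1.91. *Pde5a* measured 9.15, 16.5 and 14.4 CPM in glands M11035, M11640 and M9232 and 46.9, 54.3 and 49.1 CPM in their tumors, without overlap. *Ppp1cb*, the catalytic subunit of the phosphatase that opposes *Mylk*, was the most abundant and was not called, at 0.13. Thus the kinase gene fell while its phosphatase subunit was not called, and the difference between these 2 genes was not tested.

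Downstream of *Oxtr*, 20 genes of Gq signaling, calcium stores and channels gave 4 called lower and 5 higher, with a median log2 FC of 0.09. *Plcb1*, a phospholipase C that Gq proteins activate, was the lowest at -1.62, with 77.1, 137 and 82.8 CPM in glands M11035, M11640 and M9232 and 29.2, 33.0 and 29.8 CPM in their tumors. The calcium channel gene *Trpc6* was the highest, at 2.09, and *Atp2a2*, the pump that refills calcium stores, was the most abundant and not called, at 0.55. The receptor gene was thus much further down than any of the 20, whose lowest value was that of *Plcb1*. The number called higher was 3 without tumor T11035 and also with M9232 as the only gland.

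Around *Myocd*, 16 genes of SRF, its partners and their modulators gave 2 called lower and 4 higher, with a median of 0.11. *Klf5*, a zinc finger factor that promotes growth of smooth muscle cells, was the highest, at 3.87, with 3.25, 2.97 and 5.75 CPM in glands M11035, M11640 and M9232 and 69.2, 55.2 and 65.5 CPM in their tumors. *Mef2c*, a muscle transcription factor, was the lowest, at -2.02, and *Mef2a* the most abundant and not called, at 0.70. The number called lower was 1 without gland M11640, gland M9232 or tumor T11035, with M9232 as the only gland, with a pseudocount of 1 and without the trend. Of 11 non-muscle relatives of the contractile genes, 4 were called higher and 7 were not called, with a median of 0.74, and 2 were called higher with M9232 as the only gland. *Tagln2* was the highest of these, the light chain gene *Myl12b* the lowest at -0.09, and *Actb* the most abundant.

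Markers of the cell types that carry contractile proteins, or that lie around them, moved in different directions. Of 10 basal epithelial genes other than the contractile ones, 9 were called higher and 1 lower, with a median log2 FC of 3.17, and their sum was 558, 833 and 715 CPM in glands M11035, M11640 and M9232 and 2790, 3221 and 3209 CPM in their tumors. Keratin 5 (*Krt5*), the most abundant, measured 9.96, 27.6 and 36.1 CPM in the glands and 913, 989 and 1055 CPM in the tumors. The highest was *Krt14* at 5.75, and the exception was *Mme*, a surface peptidase of myoepithelial cells, at -2.39. So the keratins of the basal layer rose in the same tumors in which *Oxtr*, *Myh11* and *Mylk* fell. Luminal epithelial markers gave 2 lower and 5 higher of 12, with a median of 0.69, sums of 533, 702 and 1040 CPM in the glands and 849, 854 and 981 CPM in the tumors, and *Cdh1* as the most abundant, *Areg* the highest at 2.88 and *Prlr* the lowest at -3.11. The number of luminal markers called higher was 2 with M9232 as the only gland.

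Markers of vascular smooth muscle, which also expresses the contractile genes, gave 3 of 8 called lower and 5 not called, with a median log2 FC of -0.84 and *Casq2* lowest at -2.20. Their sum was 62.6, 88.2 and 54.3 CPM in glands M11035, M11640 and M9232 and 37.8, 39.7 and 37.5 CPM in their tumors, and *Kcnab1*, the most abundant and the highest at 0.48, was not called. In this sum every tumor lay below every gland. The number called lower was 5 without gland M9232 and 1 with M9232 as the only gland. Of 8 pericyte markers, 3 were called higher and 5 were not called, with sums of 304, 459 and 295 CPM in the glands and 285, 318 and 395 CPM in the tumors, a median of 0.26, *Ndufa4l2* highest at 1.82 and *Abcc9* both lowest, at -0.90, and most abundant. The pericyte sums of the tissues overlapped. *Ndufa4l2*, which was called higher, rested on 1, 0 and 2 fragments in glands M11035, M11640 and M9232, all under the floor of 3. It had 8, 13 and 15 fragments in their tumors. Without gland M9232 or tumor T9232, 1 pericyte marker was called lower. Of 10 endothelial markers, 3 were called lower and 7 were not called, with a median of -0.45, sums of 409, 523 and 386 CPM in the glands and 233, 272 and 316 CPM in the tumors, *Tek* lowest at -1.35, *Emcn* highest at 0.28 and *Pecam1* most abundant. Of these, 1 was called lower without gland M11640 or tumor T11035 and with M9232 as the only gland.

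Myofibroblasts also make *Acta2* and *Tagln*, and most of their markers rose in the same tumors as *Actg2*. Of 10 such markers, 9 were called higher, with a median log2 FC of 4.52, and their sum was 433, 916 and 873 CPM in glands M11035, M11640 and M9232 and 10505, 11775 and 12869 CPM in their tumors. Periostin (*Postn*), the most abundant, measured 243, 500 and 599 CPM in the glands and 3771, 4539 and 5261 CPM in the tumors, *Col12a1* was the highest at 6.90, and *Fap* the lowest at 0.03 and not called. Other fibroblast markers gave 1 lower and 3 higher of 8, with a median of 0.64 and sums of 621, 2792 and 1384 CPM in the glands and 1370, 1376 and 1960 CPM in the tumors. Among these *Dcn* was the most abundant, *Col6a1* the highest at 2.30 and *Dpt* the lowest at -2.70, and the count called lower was 0 without gland M11640, gland M9232, tumor T11035 or tumor T11640, with M9232 as the only gland and without the trend.

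Adipocyte markers were all called lower, 10 of 10, with a median log2 FC of -5.95 and with sums of 5212, 6753 and 3497 CPM in glands M11035, M11640 and M9232 and 173, 218 and 159 CPM in their tumors. *Fabp4*, the most abundant, measured 3795, 4979 and 2458 CPM in the glands and 146, 186 and 132 CPM in the tumors, while *Adipoq* was the lowest at -7.00 and *Lipe* the highest at -3.23. The part of any of these cell types in the levels of *Oxtr*, *Myh11*, *Mylk*, *Lmod1*, *Des*, *Actg2* and the other contractile genes was not tested.

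**Figure D3:**
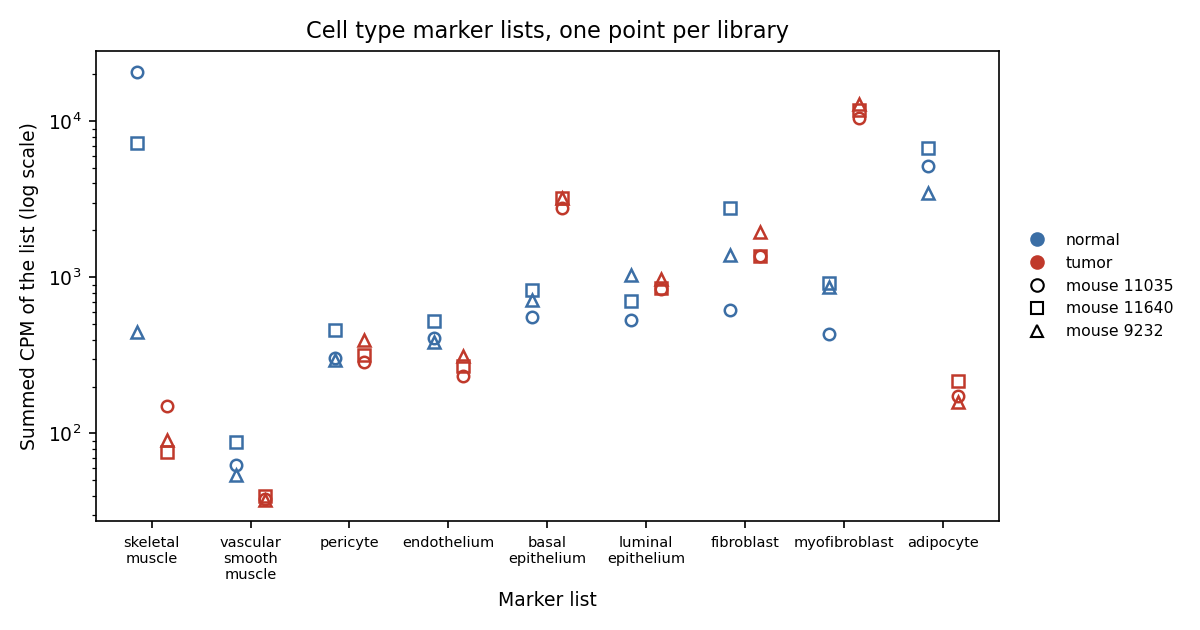
Summed CPM of 9 marker lists on a log axis, with normal glands in blue, tumors in red and the mouse given by the symbol. The skeletal muscle sums of the glands run from 448 to 20678 CPM, and the adipocyte sums of the tumors, 159 to 218 CPM, lie far below those of the glands.

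As a measure of how far the 10 genes shared a profile, each gene's log2(CPM + 0.5) was centred on its own mean over the 6 libraries and compared with the mean profile of the 10. The root mean square difference was 0.40 log2 units for *Mylk*, the closest, 0.50 for *Cnn1*, 0.63 for *Lmod1* and 0.87 for *Myh11*. It was 1.57 for *Des*, 1.98 for *Oxtr* and 2.05 for *Actg2*, the farthest. *Myocd*, *Acta2* and *Tagln* lay between them, at 0.89, 0.91 and 0.95. Among 14521 genes outside the lists with a mean of at least 1 CPM, those closest to the mean profile were *Asah2* (0.08), *Phf17* (0.09), *Met* (0.09), *Slc48a1* (0.09) and *Cxx1c* (0.10). All 5 had their tumors below their glands, and *Met* measured 89.1, 154 and 151 CPM in glands M11035, M11640 and M9232 and 62.9, 61.5 and 68.6 CPM in their tumors. These 5 were picked for their closeness, and the mean profile averages over genes that went both ways.

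Promoter sequences, from 250 bases before to 50 after the RefSeq gene start, were available for 6 of the 10 genes (*Acta2*, *Cnn1*, *Des*, *Lmod1*, *Mylk* and *Oxtr*) in the RefSeq table (GRCm38.p6), and not for *Actg2*, *Myh11*, *Tagln* and *Myocd*. Each window had 1 exact match in mm9. The windows were searched for the CArG box, the sequence that SRF binds, which reads the same way on both strands. The exact box was in 0 of the 6 windows and in 1.63% of 32851 promoters of the table. A form with 1 of its inner A or T bases replaced by G or C was in the window of *Acta2* only, with 2 sites, and in 8.50% of all promoters. In *Acta2*, CCCTATATGG began 84 bases and CCTTGTTTGG 34 bases before the RefSeq start, which itself lay 37 bases upstream of the start of the annotated gene given above. A match describes these letters and is no evidence of binding, and a window without a match says only that the letters are not in it. The windows of *Acta2*, the only one with a match, and of *Oxtr*, the gene with the largest fall of the 10, are given 5′ to 3′ with the matches in capitals. That of *Acta2* (mm9 chr19:34329814-34330113, minus strand) lay outside the annotated gene but for 13 bases of exon, and that of *Oxtr* (mm9 chr6:112439770-112440069, minus strand) lay inside the annotated gene, with 208 bases of exon and 92 of intron. The *Mylk* window also lay inside its gene, 39740 bases downstream of the annotated start, with 79 bases of exon and 221 of intron, whereas those of *Des*, *Lmod1* and *Cnn1* lay outside but for 13, 56 and 22 bases of exon.
Acta2: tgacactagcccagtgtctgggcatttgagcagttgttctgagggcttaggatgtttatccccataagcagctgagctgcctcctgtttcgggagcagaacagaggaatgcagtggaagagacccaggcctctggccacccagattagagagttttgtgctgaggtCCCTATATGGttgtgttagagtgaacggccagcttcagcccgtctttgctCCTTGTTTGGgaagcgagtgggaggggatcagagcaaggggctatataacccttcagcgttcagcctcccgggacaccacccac
Oxtr: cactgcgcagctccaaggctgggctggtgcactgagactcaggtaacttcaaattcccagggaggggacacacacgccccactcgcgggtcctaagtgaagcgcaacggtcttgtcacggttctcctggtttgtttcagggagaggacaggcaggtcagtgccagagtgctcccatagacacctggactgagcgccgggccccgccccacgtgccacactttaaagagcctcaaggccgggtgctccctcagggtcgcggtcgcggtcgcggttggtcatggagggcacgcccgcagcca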

How the data were processed

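RNA-Seq libraries of 3 tumors and of the adjacent glands of the same 3 mice were grouped by the tissue and mouse in their labels, and 0 per-sample columns were left out. Per the submitters' processing notes, CASAVA 1.8.2, TopHat2 2.0.3, HTSeq 0.5.3p9 and edgeR 3.6.1 were used with mm9. The authors required at least 10 fragments per gene over all libraries and deposited a normalized signal, CPM scaled with the effective size that edgeR gives each library. Columns differ in their sum, so the unit was recorded as a signal. In each library 100% of values were whole multiples of 1 step (tolerance 0.01), so fragments were recovered from the deposited CPM. Depth was 4750989, 6127715 and 7372155 fragments on genes in glands M11035, M11640 and M9232, against 5116883, 7806908 and 6948233 in their tumors.

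All 15280 genes were tested with limma 3.58.1 (R 4.3.3) with its mean-variance trend, using log2(CPM + 0.5), no filter and no block, with Benjamini-Hochberg adjustment over all genes, and the procedure was tested on simulated data. Ratios used exact permutation tests. Tumor and gland of a mouse share the animal and so are paired. Their deviations from the group means correlated across 14712 genes with r = 0.107, 0.151 and 0.0168 in the mice of M11035, M11640 and M9232. Between a gland and a tumor of different mice, r ran from -0.168 to 0.0405, a range that holds the value of the M9232 mouse. Within each tissue, no libraries were copies of each other (lowest chi-square per degree of freedom 13.0). Glands were not compared with tumors in this check.

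The 10 genes and the 14 lists were chosen with earlier results of these data known. Named are the 10 genes, the highest, lowest and most abundant gene of each list, the relatives in the ratios and the 5 genes closest in profile. *Acta1*, *Pcsk7* and *Gm15179* were named outside this rule after their values were seen, and *Ppp1r14a* because it was absent. Exon lengths and positions came from GENCODE vM1 (mm9) and transcript identities from BLAST 2.17.0.

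Alternatives were pseudocounts of 0.1 and 1, a mean of at least 1 CPM, the mouse as a block, plain CPM, median centring, no trend, edgeR 4.0.16 (quasi-likelihood) and DESeq2 1.42.0 on the recovered fragments, and each library left out. Gland M9232 as the only gland, the ratios to *Acta2*, the longest transcript as length, and leaving libraries out of these ratios and of those of means, were chosen after seeing the data.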

Additional observations from a re-analysis of the deposited data

How the results depend on the processing

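Over 16 other settings, *Actg2*, *Myh11*, *Mylk* and *Oxtr* kept their call and direction in each, and of 159 values for the 10 genes 151 kept both. The number of DEGs ran from 3206 with M9232 as the only gland, chosen after seeing the data, to 4462 with edgeR's quasi-likelihood test on recovered fragments, against 4309, and was 4436 with DESeq2. With the mouse as a block (pairing), 4298 DEGs were found, and no call of the 10 genes changed. The exact paired sign-flip test of the ratios cannot go below p = 0.25.

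*Acta2* turned to -0.14 without gland M11035 and to -0.53 with M9232 as the only gland. Leaving out single libraries, its log2 FC ran from -0.14 to 1.0035, and its log2 ratio to *Actb* from -0.89 to 0.52, while the log2 FC of *Actg2* ran from 2.52 to 3.49 and the difference in the log2 ratio of *Des* to *Acta2* from -4.87 to -1.89. Genes called higher numbered 1 to 2 of the 10, with 2 without gland M9232 (*Tagln* added), and those called lower 4 to 6, while 3 were called lower with M9232 as the only gland. The median log2 FC was -1.79 with a mean of at least 1 CPM, which removes *Myocd* and leaves 9 genes. It lay between -1.60 and -1.05 when single libraries were left out. *Des* ran from -3.86 to -1.05 over all settings, with adjusted p from 3.91e-04 to 0.146, *Cnn1* ran from -1.73 to -0.50 with adjusted p from 0.0177 to 0.483, *Tagln* from 0.00517 to 0.232 and *Lmod1* from 3.63e-06 to 0.0777. Apart from the direction fixed by the choice of gland M9232 as the only gland, the cause of these shifts was not tested.

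Of 448 counts over the lists, 37 moved by over 1.5 times, most often the skeletal muscle genes called lower, at 20 with edgeR, 20 with DESeq2 and 5 without the trend. *Myocd* rested on at most 11 fragments per library, and its log2 FC ran from 0.001 to 1.202. With 3 mice, an exact permutation test of a single value cannot go below p = 0.1.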
